A study of Mus musculus with 34 samples.

Results

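The difference in the transcriptional response to dexamethasone (Dex) between 2 mouse cell lines was measured: a line expressing the glucocorticoid receptor (GR) variant D647V-Tetra and a line expressing the variant D647V. The quantity is an interaction, the D647V-Tetra response (Dex minus vehicle, on the log2 scale) minus the D647V response, and it shows what the Tetra change adds on the D647V background. It rests on 12 of the 34 RNA sequencing libraries of the study, 3 for each of 4 groups: D647V with ethanol vehicle (EtOH), D647V with Dex, D647V-Tetra with EtOH and D647V-Tetra with Dex. They were taken by the line and treatment given in the labels, with no use of measured values. All cells were derived from 3617 mouse mammary adenocarcinoma cells in which GR was knocked out, and they stably expressed GFP-tagged mouse GR in the named form. All were kept with 10% charcoal/dextran-treated serum and 5 µg/ml tetracycline for at least a day, and then received 100 nM Dex or EtOH for 2 h before total RNA was taken. A wild-type receptor line (WT) with 2 libraries per treatment was sequenced in the same library set (set 2). Another WT with 3 libraries per treatment belongs to set 1 and was used only to choose Dex-responsive genes. Only 1 line is given for each receptor form, so the effect of a substitution and other differences between lines cannot be told apart. The labels call each condition a triplicate without saying that the replicates were separate cultures, and if they were not, the tests may reflect only technical spread.

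GR is a transcription factor that glucocorticoid hormones switch on. In its hormone-bound form it enters the nucleus and binds DNA, often as a dimer on a pair of inverted half-sites, and it can also act through other factors such as AP-1 and NF-kB. It induces metabolic, anti-inflammatory and feedback genes and represses many inflammatory and growth-related genes. Dex is a synthetic agonist of GR. The D647V substitution lies in the ligand-binding domain, and its human counterpart was described in familial glucocorticoid resistance. The labels do not spell out Tetra. In other work on GR the name is used for a substitution in the DNA-binding domain reported to favour receptor tetramers.

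Values are counted reads per gene, given as CPM, which scales them to library size after TMM normalization. Each of the 12 libraries had 65271217 to 79776573 counted reads and 21760 to 23005 genes with a read, and 17535 genes passed the filter on low counts. Adjusted p-values are those of the edgeR quasi-likelihood test, corrected over these genes by the Benjamini-Hochberg method, and a gene was called below 0.05. D647V-Tetra EtOH replicates 1, 2 and 3 scored -43.4, -9.12 and -30 on the first principal component, where replicate 1 was lowest of set 2. The counts of replicate 1 differed from those of replicates 2 and 3 by a chi-square per gene of 64.5 and 70.5, against 15.5 between the latter. For genes with a longest transcript over 8 kb, replicate 2 was apart instead. Its median centred log2 CPM was -0.111, against -0.23 and -0.215 in replicates 1 and 3. Of 17 luminal markers, Epcam, Foxa1, Elf5, Cldn3 and Cldn7 were at 0 in set 2, and 3 exceeded 1 CPM in every library. These were Cd24a (185 to 259 CPM), Gata3 (5.08 to 22 CPM) and Esr1 (2.99 to 5.05 CPM). The 11 fibroblast markers summed to 6140 to 7230 CPM in the 12 libraries, carried by Vim and Col1a2. In set 2, Pdgfrb was at 106 to 202 CPM, Pdgfra at 26.2 to 30.3, Col3a1 at 6.77 to 8.42 and Col1a1 at 0.927 to 2.37. Fap was at 0, and Dcn, Lum, Thy1 and Fbln1 did not pass 0.143 CPM.

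The receptor transcript itself was measured first. Nr3c1, which encodes GR, stood at 285, 289 and 287 CPM in D647V with EtOH and at 290.3, 301 and 298 CPM with Dex. In D647V-Tetra it stood at 274, 258 and 256 CPM with EtOH and at 234, 249.5 and 236 CPM with Dex. Every D647V-Tetra library was below every D647V library, and the EtOH levels differed by -0.13 ± 0.041 (log2, SE, edgeR adjusted p = 0.0822, not called). The difference of response was -0.18 ± 0.057 (log2, SE, n = 3 libraries per group, edgeR adjusted p = 0.18) and did not pass the test. It was called with DESeq2 (-0.19, adjusted p = 0.0445) and with offsets for transcript length and GC (-0.30, edgeR adjusted p = 0.02). Within D647V-Tetra, Nr3c1 fell after Dex (-0.13 ± 0.041, edgeR adjusted p = 0.0346), and in D647V its response was 0.046 ± 0.041 and not called. Reads from the introduced receptor and from any remaining transcript of the knocked-out locus cannot be told apart in these counts.

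More genes were called after Dex in D647V-Tetra than in D647V, and the interaction itself was called for 153 of 17535 genes (0.873%) by edgeR's quasi-likelihood test. Of these, 136 (0.776%) had a higher and 17 (0.0969%) a lower difference, and 45 differed by at least 1.5-fold, 39 higher and 6 lower. At an unadjusted p below 0.05 there were 2416. The number called was 493 with DESeq2, 936 with no filter on low counts and 82 with a replicate block. Within the lines, 165 genes (0.941%) were called after Dex in D647V, 141 up and 24 down. In D647V-Tetra 3367 (19.2%) were called, 1984 up (11.3%) and 1383 down (7.89%). In WT of set 2, which has only 2 libraries per treatment, 302 of 17535 genes were called, 236 up and 66 down. The count of 3367 became 1917, 4023 and 1700 without D647V-Tetra EtOH replicate 1, 2 or 3. It became 1644, 3714 and 1344 without D647V-Tetra Dex replicate 1, 2 or 3. The number of called differences depended on single libraries: it was 55, 49 and 251 without D647V EtOH replicate 1, 2 or 3, and 71, 65 and 65 without D647V Dex replicate 1, 2 or 3. It was 66, 271 and 64 without D647V-Tetra EtOH replicate 1, 2 or 3, and 69, 207 and 52 without D647V-Tetra Dex replicate 1, 2 or 3. Leaving out each of the 16 libraries of set 2 in turn, here and below, includes the 4 of WT. These enter the filter, the scaling and the shared spread but not the difference itself. A core of 45 genes, 39 higher and 6 lower, was called in each of the 16 fits that left out 1 library of set 2 in turn.

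**Figure D1:**
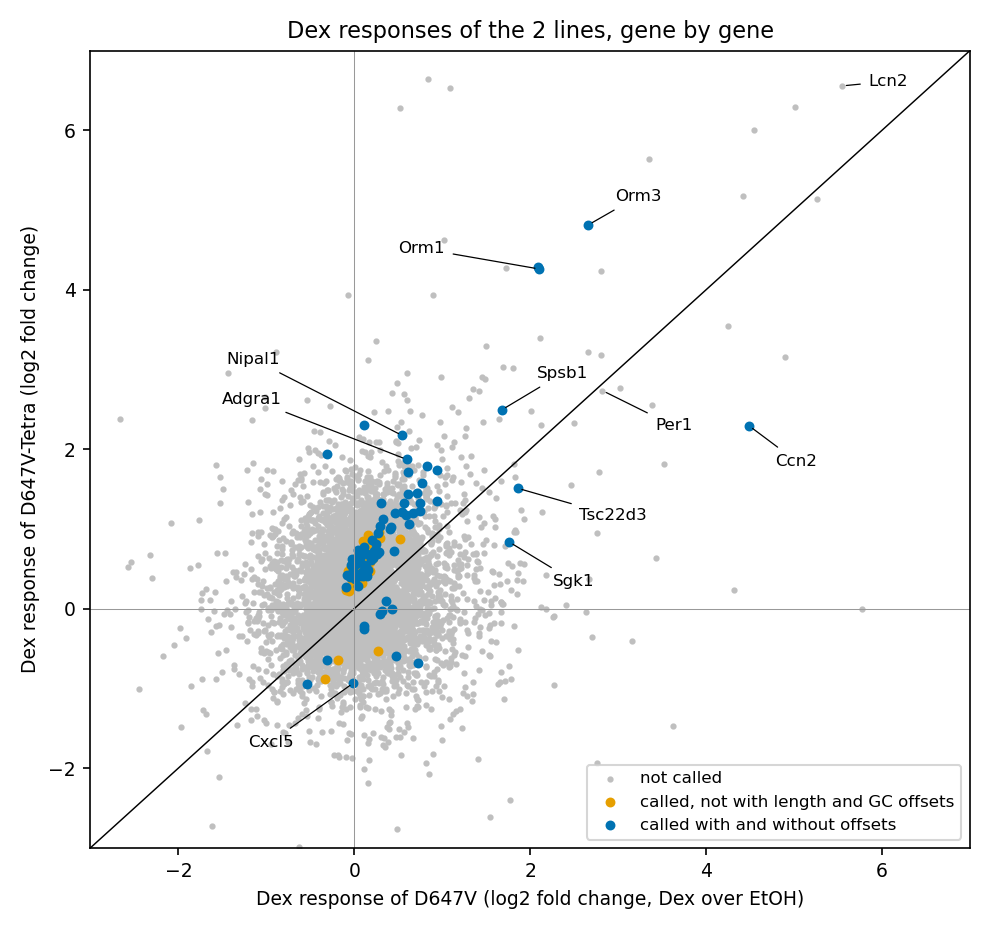
Dex response of each of 17535 genes in D647V (x axis) and D647V-Tetra (y axis), both as log2 fold change of Dex over EtOH from 3 libraries per group. Coloured points are the 153 genes with a called difference, split by whether the call held with length and GC offsets (84 did). 7 genes lie outside the axes. Ccn2 and Sgk1 lie below the line of equal response, and the Orm genes above it.

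The lowest called difference was that of Ccn2, which encodes a secreted matricellular protein (connective tissue growth factor) and is a well-known target of YAP and TGF-beta signalling. In D647V, Ccn2 was at 8.49, 7.62 and 8.46 CPM with EtOH and 194, 179.7 and 179.8 CPM with Dex. In D647V-Tetra it was at 8.60, 7.52 and 8.21 CPM with EtOH and 38.8, 40.7 and 39.8 CPM with Dex. The EtOH libraries of the lines overlapped, and after Dex every D647V-Tetra library was below every D647V library, with no overlap. Dex raised Ccn2 22.5-fold in D647V and 4.90-fold in D647V-Tetra, a difference of -2.20 ± 0.085 (log2, SE, n = 3 per group, edgeR adjusted p = 1.19e-10). In WT the libraries held 8.27 and 7.84 CPM with EtOH and 264 and 242 CPM with Dex, a log2 response of 4.97 ± 0.080. Ccn2 lies at chr10:24595442-24598683 in mm10.

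Sgk1 followed the same direction. It encodes a serum- and glucocorticoid-regulated kinase and is a classic direct GR target. Its levels in D647V were 117, 122 and 121 CPM with EtOH and 412, 418 and 394 CPM with Dex. In D647V-Tetra they were 107, 104 and 110.1 CPM with EtOH and 192, 189.7 and 193 CPM with Dex. The EtOH level was already lower in D647V-Tetra, by -0.16 ± 0.043 (log2, SE, edgeR adjusted p = 0.0384), and the Dex libraries of the lines did not overlap. The rise was 3.40-fold in D647V and 1.79-fold in D647V-Tetra, a difference of -0.93 ± 0.061 (edgeR adjusted p = 2.6e-07). In WT the libraries held 128 and 138 CPM with EtOH and 851 and 821 CPM with Dex, so the order of the responses was WT, D647V, D647V-Tetra.

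Tsc22d3, which encodes the anti-inflammatory protein GILZ, showed a smaller difference. In D647V it was at 20.2, 21.7 and 20.5 CPM with EtOH and 80.0, 74.2 and 72.4 CPM with Dex, and in D647V-Tetra at 25.3, 24.3 and 25.9 CPM and 71.6, 72.1 and 71.6 CPM. The Dex levels of the lines reached the same range, with every D647V-Tetra library below every D647V library by a small margin, while the EtOH levels were higher in D647V-Tetra (log2 0.28 ± 0.055, SE, edgeR adjusted p = 0.00915). The responses were 1.86 ± 0.055 and 1.51 ± 0.054, a difference of -0.35 ± 0.076 (edgeR adjusted p = 0.0358). This call was lost without any 1 of 10 of the 12 libraries compared. Over all fits that left out 1 library its values were -0.41 to -0.31. The differences of Ccn2 and Sgk1 stayed called throughout, at -2.25 to -2.16 and -0.97 to -0.91.

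Promoter windows of 250 bases before to 50 after a start site are shown for a pair of classic GR-induced genes with a lower difference. They were picked because they hold the GR motif (Sgk1) or its half-site (Tsc22d3). The sequences are from RefSeq (GRCm38.p6), and the start site is base 251. Capitals mark the full motif in Sgk1 and the half-site in Tsc22d3, which reads TGTTCT, that is AGAACA on the other strand. The Sgk1 window also holds a TGTTCT before the full motif, left in lower case. The windows lie at chr10:21993640-21993939 on the plus strand and chrX:140600473-140600772 on the minus strand.
Sgk1: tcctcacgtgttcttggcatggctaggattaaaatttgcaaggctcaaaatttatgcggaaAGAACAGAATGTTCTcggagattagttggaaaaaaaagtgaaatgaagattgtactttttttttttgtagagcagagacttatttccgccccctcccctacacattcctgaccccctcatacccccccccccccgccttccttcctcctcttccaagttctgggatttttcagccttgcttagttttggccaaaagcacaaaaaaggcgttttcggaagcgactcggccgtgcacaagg
Tsc22d3: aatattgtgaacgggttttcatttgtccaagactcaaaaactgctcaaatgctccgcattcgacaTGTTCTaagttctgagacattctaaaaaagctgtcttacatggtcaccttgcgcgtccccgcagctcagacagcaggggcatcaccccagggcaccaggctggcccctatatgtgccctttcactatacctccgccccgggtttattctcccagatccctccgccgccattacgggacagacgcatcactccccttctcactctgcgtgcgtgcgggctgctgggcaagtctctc
The palindrome of AGAACA and TGTTCT with 3 bases between them was searched on both strands and was found in 3 of 32851 promoter windows (0.00913%), of which 1 belongs to Sgk1, where it begins 189 bases before the start. Among the windows of the genes tested here, Sgk1 had the only match, 1 of 13400. The half-site AGAACA on either strand, which the palindrome also contains, was found in 19.0% of all windows, 13.0% of those of the genes tested, 9.92% of those of the genes called higher (13 of 131) and 21.1% of those of the genes called lower (4 of 19). The 4 windows belong to Sgk1 and Tsc22d3, which have several start sites each.

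Aldh1a7, Aldh1a1, Cdr2 and Slc31a2, all among the 12 lowest leaving out genes with only a predicted or clone name, rose after Dex in WT, had smaller values in D647V and had no rise that was called in D647V-Tetra. Aldh1a1 and Aldh1a7 encode cytosolic aldehyde dehydrogenases, of which Aldh1a1 makes retinoic acid from retinal. Aldh1a7 stood at 33.8, 36.7 and 37.4 CPM with EtOH and 46.7, 49.4 and 49.3 CPM with Dex in D647V, and at 40.2, 36.9 and 38.7 CPM and 38.4, 38.5 and 38.1 CPM in D647V-Tetra. All D647V Dex libraries exceeded all others of the 12, while the D647V-Tetra treatments overlapped. The difference was -0.44 ± 0.069 (log2, SE, edgeR adjusted p = 0.00409). Aldh1a1 stood at 70.3, 75.6 and 72.9 CPM with EtOH and 88.7, 90.8 and 93.0 CPM with Dex in D647V, and at 81.7, 73.0 and 74.7 CPM and 75.7, 77.8 and 71.7 CPM in D647V-Tetra, so it rose in D647V and its treatments overlapped in D647V-Tetra. Its difference was -0.34 ± 0.072 (edgeR adjusted p = 0.0343). The Aldh1a genes are near-identical neighbours on chromosome 19, and reads could be split between them. Cdr2, which encodes a cerebellar degeneration-related antigen, had log2 responses of 0.82 ± 0.067 in WT, 0.30 ± 0.055 in D647V and -0.069 ± 0.055 in D647V-Tetra (difference -0.37 ± 0.077, edgeR adjusted p = 0.0343). Slc31a2, a copper transporter gene, had 0.45 ± 0.057, 0.12 ± 0.046 and -0.26 ± 0.047, and fell in D647V-Tetra (edgeR adjusted p = 0.00133). The calls for Aldh1a1 and Cdr2 were each lost without any 1 of 9 of the 16 libraries (values -0.40 to -0.30 and -0.42 to -0.31), and those for Aldh1a7 and Slc31a2 held in all 16 such fits.

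The named genes with the highest differences were the Orm genes, which encode the acute-phase protein orosomucoid (alpha-1-acid glycoprotein), a known target of glucocorticoids and interleukin-6. Orm3 stood at 3.48, 2.69 and 3.21 CPM with EtOH and 17.7, 21.6 and 20.1 CPM with Dex in D647V. In D647V-Tetra it stood at 3.59, 3.28 and 3.31 CPM with EtOH and 96.0, 91.1 and 99.6 CPM with Dex. The EtOH libraries overlapped between the lines, and all D647V-Tetra Dex libraries were above all D647V Dex libraries and above both WT Dex libraries, at 61.8 and 47.4 CPM. Dex raised Orm3 6.34-fold in D647V and 28.2-fold in D647V-Tetra, a difference of 2.15 ± 0.16 (log2, SE, n = 3 per group, edgeR adjusted p = 1.21e-06). Orm1 and Orm2, named after their values were seen, were less abundant, at 3.30, 3.25 and 2.86 CPM and 2.11, 2.18 and 1.66 CPM in D647V-Tetra with Dex. They had differences of 2.16 ± 0.36 and 2.20 ± 0.45 (edgeR adjusted p = 0.00722 and 0.0319). These are near-identical paralogs in a cluster on chromosome 4, so how the reads divide among them is uncertain. The call for Orm2 was lost without any 1 of 8 of the 16 libraries and that for Orm1 without 1, D647V EtOH replicate 2.

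The promoter windows of Orm3 and Orm2 are shown because the paralogs moved together. They lie at chr4:63355908-63356207 and chr4:63362199-63362498, both on the plus strand, from RefSeq (GRCm38.p6). Capitals mark a match to TGANTCA, a pattern looser than the AP-1 motif because it takes any middle base. Both matches read TGAATCA, with A where the AP-1 core has C or G.
Orm3: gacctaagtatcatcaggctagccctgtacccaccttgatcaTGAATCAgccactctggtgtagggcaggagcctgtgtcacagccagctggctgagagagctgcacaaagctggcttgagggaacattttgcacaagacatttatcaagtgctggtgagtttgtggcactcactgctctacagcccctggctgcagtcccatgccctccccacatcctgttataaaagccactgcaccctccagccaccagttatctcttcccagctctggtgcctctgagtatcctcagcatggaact
Orm2: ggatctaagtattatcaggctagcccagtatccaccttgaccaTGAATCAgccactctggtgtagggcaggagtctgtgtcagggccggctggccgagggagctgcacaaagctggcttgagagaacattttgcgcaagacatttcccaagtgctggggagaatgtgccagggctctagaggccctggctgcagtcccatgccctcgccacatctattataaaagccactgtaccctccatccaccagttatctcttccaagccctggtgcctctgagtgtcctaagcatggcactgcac
In a global alignment of 305 columns, 264 were identical (86.6%). The TGAATCA match begins 208 bases before the start in Orm3 and 207 before it in Orm2. The Orm2 window also holds the GR half-site AGAACA, left in lower case, and the Orm3 window does not. TGANTCA, searched on both strands, was found in 7.81% of all promoter windows, in 5.71% of those of the genes tested, in 6.11% of those of the genes called higher (8 of 131, all of genes called with and without the offsets described below) and in 5.26% of those of the genes called lower (1 of 19).

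**Figure D2:**
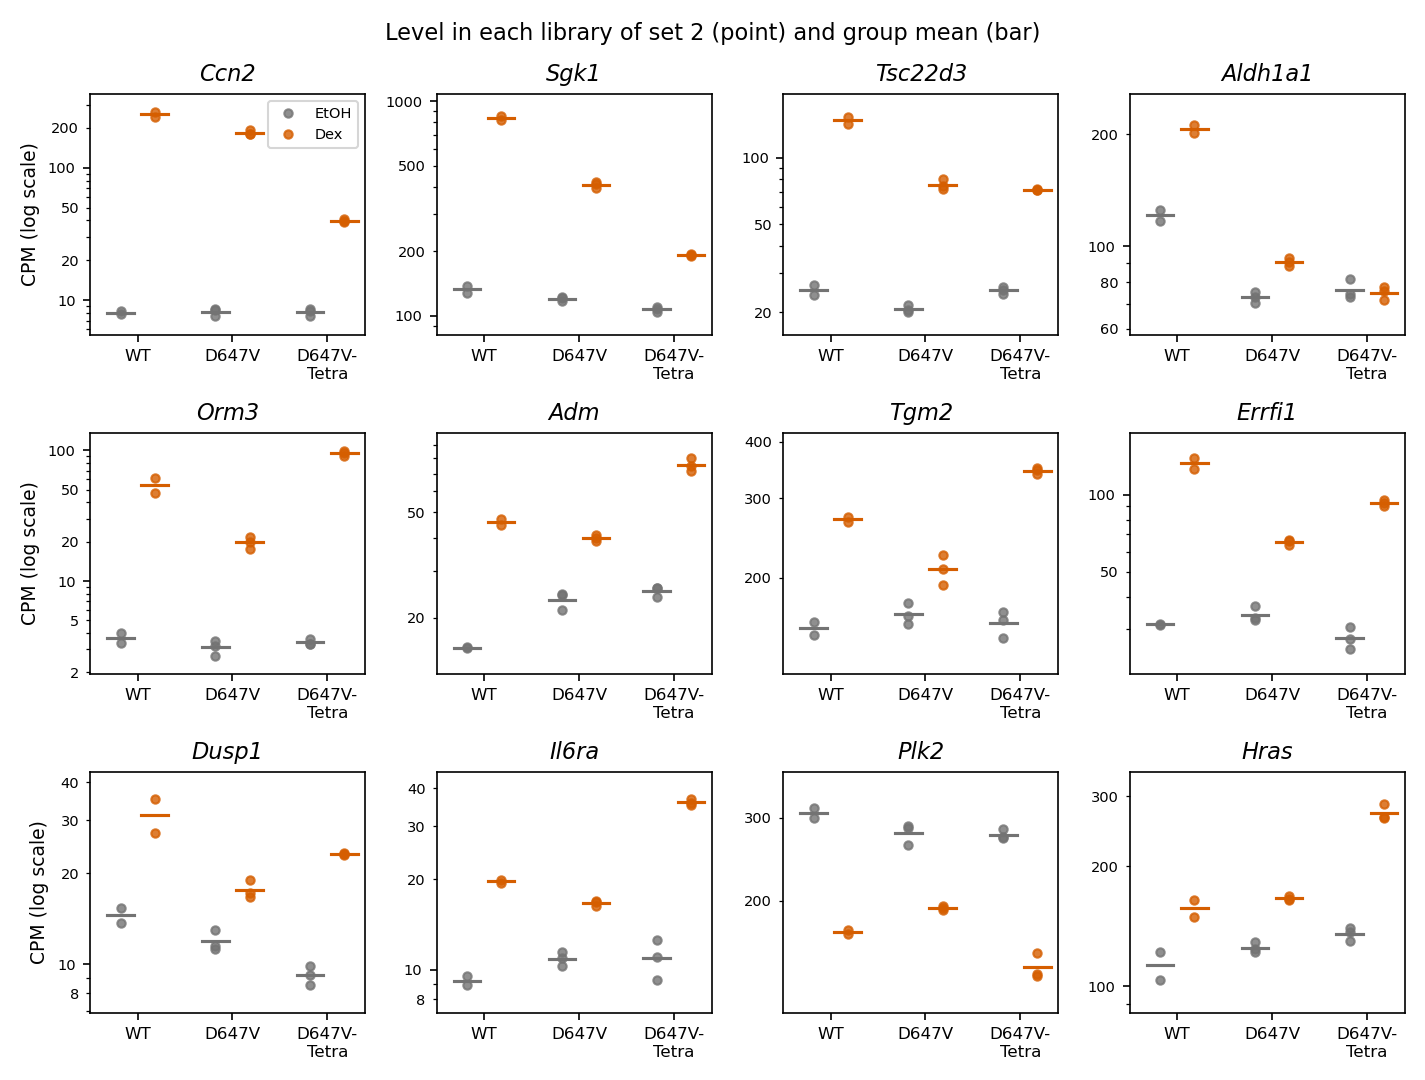
Level of 12 genes in each library of set 2, in CPM on a log axis, with EtOH in grey and Dex in orange. Points are libraries (2 per group in WT, 3 in the other lines) and bars are group means. After Dex, Ccn2 and Sgk1 are highest in WT and lowest in D647V-Tetra, while Orm3, Adm, Tgm2, Il6ra and Hras are highest in D647V-Tetra.

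Il6ra, Nipal1, Adgra1 and Slc25a33, all among the 12 highest, encode receptors or transporters. Il6ra, the interleukin-6 receptor alpha chain, stood at 11.4, 10.9 and 10.3 CPM with EtOH and 16.7, 16.3 and 17.0 CPM with Dex in D647V, and at 11.0, 12.5 and 9.29 CPM and 35.3, 36.9 and 35.9 CPM in D647V-Tetra. The EtOH libraries overlapped and the Dex libraries did not, those of D647V-Tetra being above all others of set 2. The difference was 1.10 ± 0.11 (log2, SE, edgeR adjusted p = 8.77e-05). Nipal1, a putative magnesium transporter gene, stood at 3.14, 3.34 and 3.02 CPM with EtOH and 4.53, 4.89 and 4.47 CPM with Dex in D647V, and at 3.76, 2.78 and 3.35 CPM and 13.6, 16.2 and 14.8 CPM in D647V-Tetra. Again only the Dex libraries were apart, with WT Dex at 4.80 and 5.48 CPM close to D647V, and the difference was 1.63 ± 0.17 (edgeR adjusted p = 9.83e-05). Adgra1, an adhesion G protein-coupled receptor gene, had log2 responses of 0.73 ± 0.11 in WT, 0.60 ± 0.090 in D647V and 1.87 ± 0.091 in D647V-Tetra, a difference of 1.27 ± 0.13 (edgeR adjusted p = 7.84e-05). Slc25a33, a mitochondrial pyrimidine nucleotide carrier gene, had 1.10 ± 0.13, 0.30 ± 0.11 (not called) and 1.32 ± 0.11, a difference of 1.02 ± 0.15 (edgeR adjusted p = 0.00218). Slc39a14, a zinc and iron importer gene named after its values were seen, had a difference of 0.68 ± 0.097 (edgeR adjusted p = 0.00194).

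Errfi1, Dusp1 and Spsb1 were also among the 12 highest. Errfi1, an inhibitor of the EGF receptor, stood at 32.4, 33.0 and 37.0 CPM with EtOH and 66.4, 66.0 and 63.5 CPM with Dex in D647V, and at 27.5, 25.1 and 30.4 CPM and 90.0, 95.1 and 92.5 CPM in D647V-Tetra. The lines did not overlap in either treatment, the EtOH level being lower in D647V-Tetra by -0.30 ± 0.067 (log2, SE, edgeR adjusted p = 0.0164) and the Dex level higher. The difference was 0.80 ± 0.093 (edgeR adjusted p = 0.000175), and the WT response of 2.09 ± 0.082 was above that of both lines. Dusp1, a phosphatase that inactivates MAP kinases, stood at 11.5, 11.2 and 13.0 CPM with EtOH and 19.0, 16.7 and 17.3 CPM with Dex in D647V, and at 8.52, 9.20 and 9.87 CPM and 23.1, 23.2 and 23.3 CPM in D647V-Tetra. Its EtOH level was likewise lower in D647V-Tetra (-0.37 ± 0.094, edgeR adjusted p = 0.0324) and its Dex libraries were apart and higher. The difference was 0.76 ± 0.13 (edgeR adjusted p = 0.00847). Spsb1, a substrate adaptor of an E3 ubiquitin ligase, had responses of 1.68 ± 0.084 in D647V and 2.50 ± 0.087 in D647V-Tetra, beside 2.65 ± 0.10 in WT, and a difference of 0.82 ± 0.12 (edgeR adjusted p = 0.00218). Socs3, a suppressor of cytokine signalling named after its values were seen, had -0.041 ± 0.065, 0.42 ± 0.065 and, in WT, 0.023 ± 0.080. It was called up in D647V-Tetra (edgeR adjusted p = 0.000312) and its difference of 0.46 ± 0.091 was called too (edgeR adjusted p = 0.0261), in 9 of the 16 fits that left out a library.

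The rest of the 12 highest were Adm, Tgm2, Sik1 and Plin4. Adm, which encodes the vasodilator peptide adrenomedullin, stood at 21.4, 24.4 and 24.5 CPM with EtOH and 40.2, 38.9 and 41.0 CPM with Dex in D647V, and at 26.0, 23.9 and 25.8 CPM and 71.8, 80.1 and 74.6 CPM in D647V-Tetra. The EtOH libraries overlapped, and the Dex libraries of D647V-Tetra were above all others of set 2. The difference was 0.81 ± 0.084 (log2, SE, edgeR adjusted p = 8.77e-05). The log2 response was 1.58 ± 0.060 in D647V-Tetra and much the same in WT, at 1.57 ± 0.075. The WT libraries with EtOH were lower, at 15.55 and 15.38 CPM. Tgm2, the gene of tissue transglutaminase, stood at 158, 176 and 165 CPM with EtOH and 225, 193 and 209 CPM with Dex in D647V, and at 147, 162 and 168 CPM and 349.6, 340.3 and 347 CPM in D647V-Tetra. Its EtOH libraries overlapped as well, and the D647V-Tetra Dex libraries were above the WT Dex libraries at 273 and 266 CPM. The difference was 0.79 ± 0.085 (edgeR adjusted p = 9.83e-05). Sik1, a salt-inducible kinase that restrains CREB signalling, had log2 responses of 0.83 ± 0.091 in D647V and 1.79 ± 0.093 in D647V-Tetra and a difference of 0.97 ± 0.13 (edgeR adjusted p = 0.000911). Plin4, a lipid droplet coat protein gene, had 0.61 ± 0.10 and 1.44 ± 0.10 and a difference of 0.83 ± 0.14 (edgeR adjusted p = 0.0101). Glul, which encodes glutamine synthetase, had 0.45 ± 0.041 and 0.72 ± 0.041, beside 0.98 ± 0.050 in WT, and a difference of 0.27 ± 0.057 (edgeR adjusted p = 0.0343), called in 6 of the 16 fits that left out a library.

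Hras was followed because the parental cells carry an array of the MMTV promoter, a glucocorticoid-responsive viral promoter, driving a ras gene. It stood at 122, 124 and 129 CPM with EtOH and 166, 165 and 168 CPM with Dex in D647V. In D647V-Tetra it stood at 139.8, 129.8 and 137 CPM with EtOH and 265, 265 and 286 CPM with Dex. The D647V-Tetra Dex libraries were above every other library of set 2, the WT Dex libraries being at 165 and 149 CPM. Dex raised Hras 1.33-fold and 2.01-fold, a difference of 0.59 ± 0.083 (log2, SE, edgeR adjusted p = 0.0014). Reads of the cellular gene and of the array cannot be told apart in these counts.

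Several further Dex-induced genes were named after their values were seen. Glrx, which encodes the thiol oxidoreductase glutaredoxin, had log2 responses of 0.71 ± 0.061 in D647V and 1.45 ± 0.062 in D647V-Tetra, beside 1.44 ± 0.076 in WT (difference 0.74 ± 0.087, edgeR adjusted p = 0.000207). Tead4, a DNA-binding partner of YAP, had 0.75 ± 0.051, 1.33 ± 0.051 and 1.31 ± 0.063 (difference 0.58 ± 0.071, edgeR adjusted p = 0.000364), opposite in direction to the YAP target Ccn2. The responses of the transcription factor gene Sox9 were 0.59 ± 0.070 and 1.17 ± 0.071, with a difference of 0.58 ± 0.099 (edgeR adjusted p = 0.00812). Suox, the gene of sulfite oxidase, Mknk2, a kinase gene of translation initiation, and Pim3, a survival kinase gene, had differences of 0.73 ± 0.079, 0.67 ± 0.085 and 0.44 ± 0.084 (edgeR adjusted p = 9.83e-05, 0.000542 and 0.0222). Bcl2l1, which encodes the anti-apoptotic protein Bcl-xL, had a difference of 0.41 ± 0.083 (edgeR adjusted p = 0.0292). WT responses were 1.33 ± 0.074 for Pim3 and 1.28 ± 0.073 for Bcl2l1, beside 1.06 ± 0.060 and 1.36 ± 0.060 in D647V-Tetra. For Suox, Mknk2 and Sox9 the WT responses were 0.84 ± 0.069, 0.41 ± 0.074 and 0.54 ± 0.085, beside 1.20, 0.94 and 1.17 in D647V-Tetra. The calls of Pim3 and Bcl2l1 held in 11 and 9 of the 16 fits that left out a library, and those of the other 5 in all 16.

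**Figure D3:**
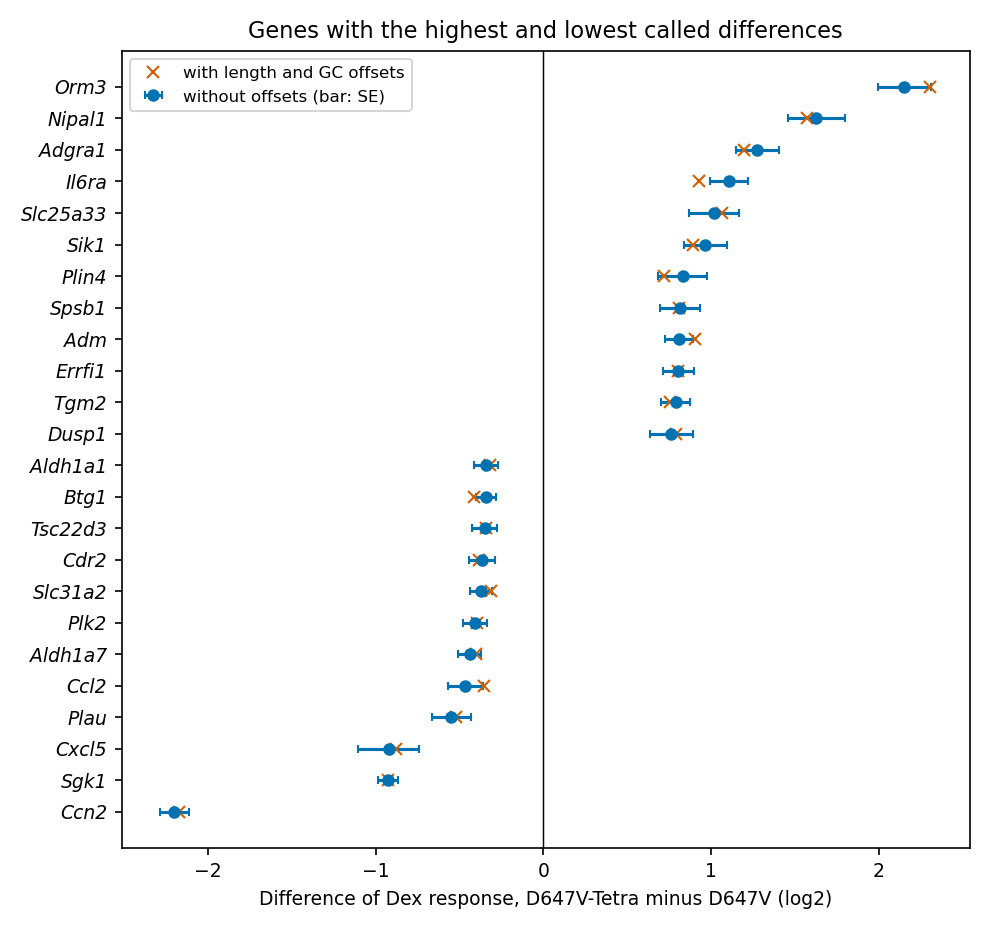
Difference of Dex response, D647V-Tetra minus D647V, in log2 units, for the 12 highest and 12 lowest called genes whose mean log2 CPM reached 1, leaving out genes with only a predicted or clone name. Blue points carry the SE (n = 3 libraries per group) and crosses give the value with length and GC offsets. The values run from -2.20 for Ccn2 to 2.15 for Orm3, and the offsets kept every sign.

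Plk2 and Btg1 fell after Dex in both lines and further in D647V-Tetra, while Cxcl5, Ccl2, Plau and Foxc1 were called down in D647V-Tetra and not in D647V. Plk2, a stress-responsive polo-like kinase gene, stood at 263, 286 and 288 CPM with EtOH and 195, 191 and 193 CPM with Dex in D647V, and at 284, 273 and 272 CPM and 139.5, 154 and 138 CPM in D647V-Tetra. The EtOH libraries overlapped, and the D647V-Tetra Dex libraries were below all others of set 2. The difference was -0.41 ± 0.070 (log2, SE, edgeR adjusted p = 0.00902). Btg1, an antiproliferative gene, had log2 responses of -0.31 ± 0.043 in D647V, -0.65 ± 0.043 in D647V-Tetra and -0.60 ± 0.053 in WT, with a difference of -0.34 ± 0.061 (edgeR adjusted p = 0.0121). Cxcl5, a neutrophil chemokine gene, stood at 4.34, 4.51 and 4.78 CPM with EtOH and 4.75, 4.51 and 4.26 CPM with Dex in D647V, and at 5.05, 4.28 and 4.21 CPM and 2.01, 2.57 and 2.50 CPM in D647V-Tetra. Only the D647V-Tetra Dex libraries were apart from the rest, and the difference was -0.92 ± 0.18 (edgeR adjusted p = 0.0254). The monocyte chemokine gene Ccl2 had log2 responses of -0.18 ± 0.074 in D647V, -0.65 ± 0.075 in D647V-Tetra and -0.40 ± 0.093 in WT. The urokinase gene Plau had -0.33 ± 0.082, -0.88 ± 0.084 and -0.71 ± 0.10. Both were called down in WT of set 2 (edgeR adjusted p = 0.0306 and 0.00045), where Cxcl5 (0.53 ± 0.16) and Foxc1 (0.037 ± 0.061) were not called. The differences of Ccl2 and Plau were -0.46 ± 0.11 and -0.55 ± 0.12 (edgeR adjusted p = 0.0468 and 0.0344). With offsets for transcript length and GC the latter calls were lost, at -0.35 and -0.52 (edgeR adjusted p = 0.148 and 0.0552). Leaving out 1 library in turn, the calls held in 14 of 16 fits for Btg1, 9 for Cxcl5, 6 for Plau and 5 for Ccl2. Foxc1, a forkhead factor gene named after its values were seen, had a difference of -0.33 ± 0.070 (edgeR adjusted p = 0.0358), called in 7 of the 16.

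Other well-known GR targets had responses whose difference was not called. Per1, a core clock repressor induced directly by GR, stood at 4.49, 4.42 and 3.98 CPM with EtOH and 31.1, 29.6 and 30.5 CPM with Dex in D647V, and at 2.51, 4.04 and 3.74 CPM and 27.0, 18.7 and 23.1 CPM in D647V-Tetra. It rose in both lines, its difference was -0.087 ± 0.20 (log2, SE, edgeR adjusted p = 0.874), and its sign turned without D647V-Tetra EtOH replicate 2 (0.04) or Dex replicate 2 (0.04). Klf9, a Krüppel-like factor gene, had a difference of -0.042 ± 0.088, whose sign turned without D647V Dex replicate 2 (0.0090). Cdkn1a, the gene of the cell cycle inhibitor p21, had 0.17 ± 0.12, and Mt1, a metallothionein gene, 0.22 ± 0.086 (edgeR adjusted p = 0.863, 0.566 and 0.262 in this order). The difference of Mt1 was called with offsets, at 0.34 (edgeR adjusted p = 0.0286). Lcn2, which encodes the iron-siderophore-binding protein lipocalin-2, stood at 3.20, 3.58 and 3.25 CPM in D647V with Dex and at 7.90, 6.35 and 7.72 CPM in D647V-Tetra with Dex. These Dex libraries did not overlap, but the EtOH libraries of both lines held at most 0.143 CPM and the difference of 1.01 ± 0.67 did not pass the test (edgeR adjusted p = 0.526). Fkbp5, which encodes a co-chaperone that dampens GR, rose by 0.52 ± 0.052 and 0.87 ± 0.052, below the WT response of 1.21 ± 0.064. Its difference of 0.35 ± 0.073 was called (edgeR adjusted p = 0.0343). It was not called with offsets (0.33, edgeR adjusted p = 0.063) and held in 6 of the 16 fits that left out a library. Cxcl1, Ptgs2, Fos, Myc, Dusp4 and Phlda1, inflammatory, early response and feedback genes, had differences from -0.40 ± 0.16 (Cxcl1) to 0.21 ± 0.29 (Fos), none of them called (edgeR adjusted p = 0.264 and 0.788).

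Gene lists, written with earlier results of these data known, placed these genes among their pathways. The counts are descriptive, and no test was made of them. Of 46 classic GR-induced genes 38 were tested, and 11 were called higher and 3 lower, against 0.776% and 0.0969% of all genes tested. The median difference over the 38 was 0.172, beside 0.00629 over all genes. The 11 were Orm1, Orm2, Orm3, Adm, Errfi1, Tgm2, Dusp1, Spsb1, Bcl2l1, Fkbp5 and Glul, and the 3 were Ccn2, Sgk1 and Tsc22d3. The Orm genes are near-identical paralogs and may not count as separate members. Of 22 growth factor feedback genes 1 was lower (Plau), of 26 immediate early and AP-1 genes 2 were lower (Plk2 and Btg1), and of 19 inflammatory and NF-kB targets 2 were lower (Cxcl5 and Ccl2). Of 23 YAP and TGF-beta targets 1 was higher (Tead1) and 1 lower (Ccn2). Of 14 GR chaperones 1 was higher (Fkbp5, not called with offsets), while the other 13 lay below 0 without a call and the median was -0.112. Of 24 GR coregulators 1 was higher (Crebbp), and of 20 extracellular matrix genes 2 were higher (Fn1 and Lamc1). No member was called among 20 circadian clock, 28 cell cycle, 17 p53 target, 20 integrated stress response, 23 cholesterol synthesis, 15 interferon response or 14 mitochondrially encoded genes. At the same threshold none was called among 6 luminal, 5 basal, 6 fibroblast, 5 immune and 5 endothelial markers. Zbtb16 and Mt2 did not pass the filter on low counts.

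Genes chosen for their response in the WT line of set 1, whose libraries the comparison does not use, gave a wider view. WT of set 1 had 323 genes called up (2%) and 226 called down (1.4%) of 16140 genes (3.4% in all), and 321 and 226 of these were tested in set 2. Over the 321, the median log2 response was 0.447 in WT of set 2, 0.299 in D647V and 0.532 in D647V-Tetra. Called up were 133 of them in D647V (0.804% of all genes) and 245 in D647V-Tetra (11.3% of all genes). The response exceeded that of WT of set 2 for 56 of the 321 genes in D647V and for 156 in D647V-Tetra. The difference between the lines was above 0 for 237 genes and below 0 for 84, with a median of 0.184, and 50 genes (15.6%) were called higher and 8 (2.49%) lower. For the 134 that rose at least 1.5-fold in WT of set 1, the medians were 1.06 in WT, 0.669 in D647V and 1.2 in D647V-Tetra, with 24 called higher and 7 lower. Over the 226 genes called down, the medians were -0.248, -0.139 and -0.213 in the same order of lines. Called down were 22 of them in D647V (0.137% of all genes) and 106 in D647V-Tetra (7.89% of all genes), and 4 differences were called higher and 4 lower.

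Read from the other side, 50 of the 136 genes with a higher difference (36.8%) were called up in WT of set 1, as were 8 of the 17 with a lower difference (47.1%). For the 50, the median response was 0.662 in WT of set 2, 0.371 in D647V and 1.01 in D647V-Tetra, and 45 of them had a higher response in D647V-Tetra than in WT. For the 8, the medians were 0.876, 0.398 and 0.0426, and none had a response in either line above that of WT. These medians describe genes picked by the difference itself, and no test was made of them.

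**Figure D4:**
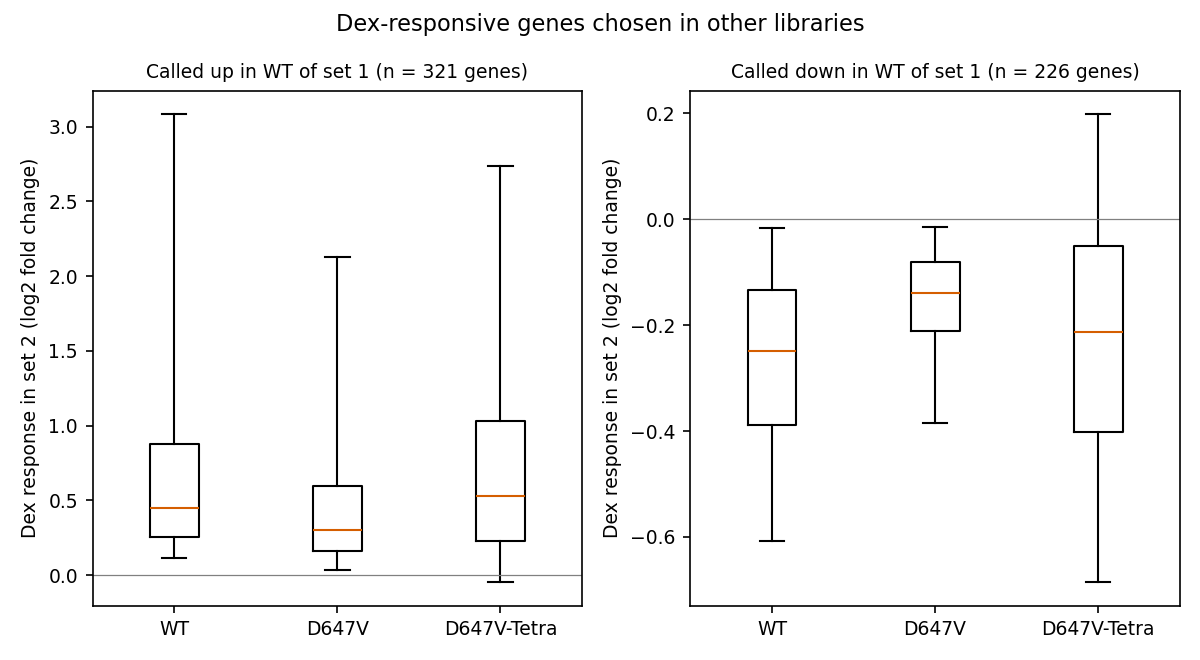
Dex response in set 2 (log2 fold change) of genes called up (321) or called down (226) in WT of set 1, for WT, D647V and D647V-Tetra. Boxes span the quartiles with the median in orange, and whiskers the 5th to 95th percentile. For the genes called up the medians are 0.447, 0.299 and 0.532.

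Transcript length moved with the comparison. Among genes whose mean log2 CPM reached 1, the median difference rose with the longest annotated transcript, from -0.155 for 663 genes up to 1 kb, through -0.0329 for 4579 genes of 2 to 4 kb, to 0.233 for 617 genes over 8 kb. Of the genes over 8 kb 55 (8.91%) were called higher, beside 30 (0.655%) of those of 2 to 4 kb. The libraries that stood apart were those of D647V-Tetra with EtOH: the median centred log2 CPM of the genes over 8 kb was -0.23, -0.111 and -0.215 there, and -0.0241 to 0.108 in the other 9 libraries of these lines. The EtOH baseline showed the opposite trend to the difference, from 0.159 up to 1 kb to -0.229 over 8 kb. The same EtOH libraries enter both with opposite signs, so the trends are not separate observations. In the baseline 795 genes (4.53%) were called, 93 higher (0.53%) and 702 lower (4%) in D647V-Tetra. That count was 188 and 215 without D647V EtOH replicate 1 or 2, and 256 and 330 without D647V-Tetra EtOH replicate 1 or 3. D647V with Dex had a median response of 0.0225 for the genes over 8 kb and D647V-Tetra one of 0.248.

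**Figure D5:**
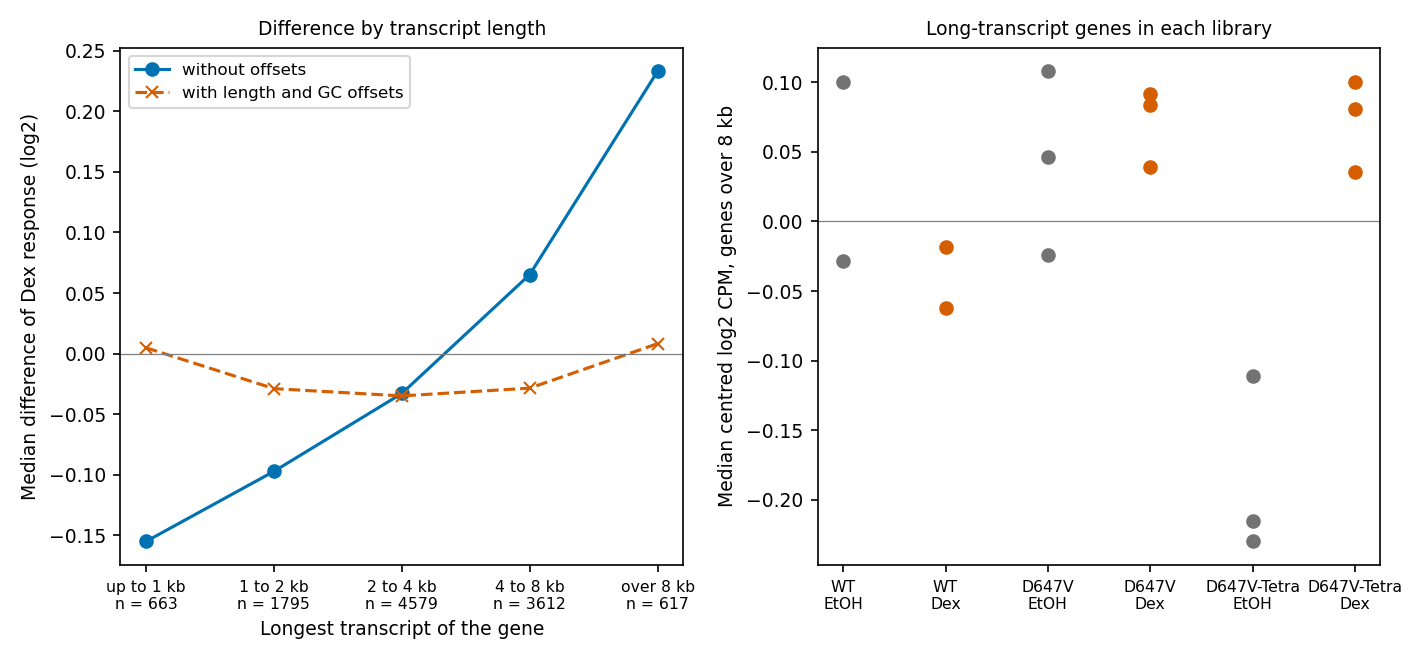
Left, median difference of Dex response (log2) of genes by the length of their longest transcript, without and with length and GC offsets. The offsets were fitted to length, so a flat line with them follows largely from the setting. Right, median centred log2 CPM of genes over 8 kb in each library of set 2. The 3 D647V-Tetra EtOH libraries lie between -0.23 and -0.111, below all others.

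Long genes of structural proteins show the pattern one by one, with difference and baseline sharing the EtOH libraries. Ahnak, a giant scaffold protein gene, stood at 5426, 5900.0 and 5110.0 CPM with EtOH and 5415, 5679 and 5996 CPM with Dex in D647V, and at 3859, 4131 and 3720.0 CPM and 5363, 6129 and 5767 CPM in D647V-Tetra. The D647V-Tetra EtOH libraries were the low ones and the Dex libraries of the lines overlapped. Its difference was 0.50 ± 0.089 (log2, SE, edgeR adjusted p = 0.0113) and its baseline -0.49 ± 0.063. Dst, a cytoskeletal linker, Syne2, a nuclear envelope linker, and Fat1, a giant cadherin, had differences of 0.52 ± 0.098, 0.55 ± 0.11 and 0.55 ± 0.10 and baselines of -0.48 ± 0.069, -0.48 ± 0.075 and -0.60 ± 0.073. These 4 were named after their values were seen. Fn1 (fibronectin), Lamc1 (a laminin chain), Crebbp (a histone acetyltransferase) and Tead1 (a partner of YAP), the list members called higher, had differences of 0.57 ± 0.12, 0.31 ± 0.070, 0.69 ± 0.16 and 0.63 ± 0.14 and baselines of -0.51 ± 0.082, -0.32 ± 0.050, -0.59 ± 0.11 and -0.61 ± 0.10. With offsets for transcript length and GC content in each library, a setting chosen after this pattern was seen, Fn1 stayed called at 0.39 (edgeR adjusted p = 0.0304) and the other 7 did not.

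With these offsets 117 differences were called (0.667%), 89 higher (0.508%) and 28 lower (0.16%), and the median differences by length lay between -0.0349 and 0.00819. The offsets were fitted to transcript length in each library. Flat medians by length, and calls lost among long genes, therefore follow largely from the setting. Called both ways were 84 genes, 70 higher and 14 lower. The 66 genes called higher without offsets and not with them had a median longest transcript of 11416 bases, against 3891 for the 70 higher both ways and 2724 for all genes tested. Their median baseline was -0.384, and their median WT response in set 2 was -0.0941, beside -0.0889 and 0.351 for the 70. Called up in WT of set 1 were 9 of the 66 (13.6%) and 41 of the 70 (58.6%). The split within the D647V-Tetra Dex response also moved, from 1984 up and 1383 down to 3135 called (17.9%), 1482 up (8.45%) and 1653 down (9.43%). That of the baseline moved from 93 higher and 702 lower to 316 called (1.8%), 106 higher (0.605%) and 210 lower (1.2%). The core called in every fit that left out a library held 41 genes also called with offsets, 35 higher and 6 lower. The named members with a higher difference in that core included Orm3, Nipal1, Adgra1, Il6ra, Slc25a33, Sik1, Plin4, Spsb1, Adm, Errfi1, Tgm2, Dusp1 and Hras, and those with a lower one, besides the predicted gene Gm17494, were Ccn2, Sgk1, Aldh1a7, Plk2 and Slc31a2.

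Among the highest and lowest called genes of the EtOH baseline, leaving out predicted and clone names, were non-coding RNA and protein-coding genes. Higher in D647V-Tetra were Rnu11, a minor spliceosome RNA (1.21 ± 0.30, log2, SE, edgeR adjusted p = 0.03), Snord104, a small nucleolar RNA (0.71 ± 0.13), and Dancr, a non-coding RNA (0.55 ± 0.11). Lower were Pcdhb19, a protocadherin gene (-0.82 ± 0.18), Nynrin (-0.81 ± 0.19), Hivep3, a zinc finger gene (-0.78 ± 0.18), and mt-Nd4, a mitochondrial complex I gene (-0.76 ± 0.20). None of these genes was called in the difference of responses. The longest transcripts of Rnu11, Snord104 and Dancr had 134, 70 and 2347 bases. Those of Pcdhb19, Nynrin and Hivep3 had 7138, 7511 and 11838 bases, and that of mt-Nd4 had 1378. The part of transcript length in these baseline values was not tested gene by gene. Mitochondrial reads made up 1.37 to 1.38% of counts in the D647V-Tetra EtOH libraries, 1.66 to 1.87% in those with Dex, 1.32 to 1.62% in D647V with EtOH and 1.99 to 2.19% in D647V with Dex, and their part in the results was not tested.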

How the data were processed

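Total RNA was sequenced as 100 bp paired reads. Per the submitters' processing notes, reads were handled with bcl2fastq 2.17, cutadapt, STAR and featureCounts on mm10. Per the file headers, the deposited columns hold unnormalized read counts by gene name from featureCounts 2.0.3 on GENCODE vM21 exons, with reverse-strand counting (option 2) and both mates counted. A 5% Drosophila S2 spike-in was not used. The labels name 2 library kits without assigning libraries to them. The 16 libraries of set 2 were fitted with a mean per group in edgeR 4.0.16 (R 4.3.3, limma 3.58.1; filterByExpr, TMM scaling, quasi-likelihood test, two-sided, Benjamini-Hochberg adjustment; 10 residual degrees of freedom, coefficient of variation 8.62%). Set 1 was fitted separately. SE is the absolute log2 value divided by the square root of F. DESeq2 1.42.0, other scalings and filters, a replicate block, leaving out each library, and, added after seeing the data, splines of transcript length and GC (5 degrees of freedom each) as offsets were alternatives. Scripts were tested on simulated data. Named genes are the 12 highest and 12 lowest called differences at an average log2 CPM of at least 1 (predicted and clone-named genes passed over), fixed genes, up to 4 called members per list and 4 baseline genes each way, of which 1 is not reported here. Genes, members and lists were chosen with earlier results of these data known.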

Additional observations from a re-analysis of the deposited data

Results flagged for a closer look

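Each gene below had a Dex response that differed between the D647V-Tetra and D647V lines by edgeR's quasi-likelihood test of the difference itself, with 3 libraries per group. The values are log2 differences, D647V-Tetra minus D647V.

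Genes with only a predicted or clone name are left out of these rankings. Among the 12 highest genes, Orm3 had 2.15, Nipal1 1.63, Adgra1 1.27, Il6ra 1.10, Slc25a33 1.02 and Sik1 0.97. Plin4 had 0.83, Spsb1 0.82, Adm 0.81, Errfi1 0.80, Tgm2 0.79 and Dusp1 0.76. Among the 12 lowest, Ccn2 had -2.20, Sgk1 -0.93, Cxcl5 -0.92, Plau -0.55, Ccl2 -0.46 and Aldh1a7 -0.44. Plk2 had -0.41, Slc31a2 -0.37, Cdr2 -0.37, Tsc22d3 -0.35, Btg1 -0.34 and Aldh1a1 -0.34.

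Of the genes followed for other reasons, Hras had 0.59, Fkbp5 0.35 and Glul 0.27. The list members Crebbp, Tead1, Fn1 and Lamc1 had 0.69, 0.63, 0.57 and 0.31.

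The genes named after their values were seen were Orm2 at 2.20, Orm1 at 2.16, Glrx at 0.74, Suox at 0.73, Slc39a14 at 0.68 and Mknk2 at 0.67. Sox9 had 0.58, Tead4 0.58, Socs3 0.46, Pim3 0.44, Bcl2l1 0.41 and Foxc1 -0.33. The long genes Syne2, Fat1, Dst and Ahnak had 0.55, 0.55, 0.52 and 0.50.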

How the results depend on the processing

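Of 47 named genes called in the difference of responses, none changed sign under any alternative tried. Their calls held for 40 to 47 with other scalings, filters, DESeq2 or the 12 libraries alone, for 37 with length and GC offsets, for 33 with a replicate block and for 25 to 46 without each library in turn. DESeq2 and the offsets also called Nr3c1, and the offsets Mt1. The 153 called differences became 936 with no filter on low counts, 493 with DESeq2, 82 with a replicate block, and 49 to 271 without each library in turn. The 165 calls for D647V became 380 with no filter and 121 to 187 without each library. The 3367 for D647V-Tetra became 1344 to 4023 without each library, 4084 with no filter and 4158 with DESeq2. The 795 of the EtOH baseline became 1956 with no filter, 1444 with DESeq2, 502 with the replicate block, 316 with length and GC offsets, and 188 to 1131 without each library. The cause was not tested. Same-numbered EtOH and Dex libraries had correlations of deviations from group means of -0.474, -0.207 and -0.159 in D647V and -0.335, -0.653 and 0.113 in D647V-Tetra. No sample correlated best with its own number. Deviations within a group constrain one another, so these values cannot exclude that the numbers pair the libraries. Among all 153 called genes, Macf1 and Syne1, named after their values were seen, turned sign with length and GC offsets, from 0.39 to -0.060 and from 0.48 to -0.0018. Among named genes the only signs that turned were of uncalled ones: Per1 at 0.0418 and 0.03905 without D647V-Tetra EtOH or Dex replicate 2, Dusp4 at -0.01562 without D647V-Tetra EtOH replicate 1, and Klf9 at 0.008978 without D647V Dex replicate 2. Over all fits that left out a library these ranged from -0.2683 to 0.0418 for Per1, -0.01562 to 0.07779 for Dusp4 and -0.1083 to 0.008978 for Klf9. At under about 1 CPM (Lcn2, Orm1, Orm2) counting error limits the difference.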
